A study of Mus musculus with 24 samples.

Results

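Noradrenaline and adrenaline act on the heart muscle cell through adrenergic receptors, and 8 genes of that route are described here. Adrb1, Adra1a and Adra1b encode receptors, Adcy5 and Adcy6 adenylyl cyclases, Pde3a and Pde4d phosphodiesterases, and Prkaca a catalytic subunit of protein kinase A (PKA). They were taken by gene symbol from the 20961 genes of the deposited count table, and all 8 were among the 17203 genes that passed the filter on low counts. The measurements are sequencing counts of polyA RNA from heart in 24 libraries. The mice were of 3 inbred strains: C57BL/6J, the usual laboratory mouse, CAST/EiJ, descended from wild castaneus mice, and NZO/HlLtJ, which becomes obese and is prone to diabetes. All are given as wild type with no treatment besides the diet. Mice of each strain and sex ate food labelled 10% fat with fiber, called control, or 44% fat with fiber, called high in fat and sugar, from week 6 of age until tissue was taken in week 15. That makes 12 groups of 2 libraries, so a strain difference compared 8 libraries with 8 and a diet difference within a strain 4 with 4. Nothing says that both libraries of a group stem from different mice, so p-values measure the spread between these libraries, part of which may be technical.

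The beta-1 receptor couples to the stimulatory G protein, which turns on adenylyl cyclase to make cyclic AMP (cAMP). Adcy5 and Adcy6 are the main cyclase isoforms of the adult heart muscle cell. Cyclic AMP releases the catalytic subunits of PKA, which phosphorylate calcium channels, phospholamban and the sarcomere and so raise the rate and force of the beat, while phosphodiesterases break cAMP down again. The alpha-1 receptors instead couple to Gq and phospholipase C and take part in contraction and growth of the muscle cell.

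Library totals ran from 30205073 to 52254058 counts, and the counts of these 8 genes from 221 to 12271 per library. Levels are given as CPM, counts per 1000000 of the TMM-scaled library total, and as mean ± SD over libraries. Differences are on the log2 scale with their standard error (SE), from edgeR's quasi-likelihood test, and called means a p under 0.05 after Benjamini-Hochberg adjustment over all 17203 genes. The summed level of 9 ventricular cardiomyocyte markers lay between 53600 and 68800 CPM in the 24 libraries, with overlapping ranges in the 3 strains and no marker at 0, and that of 6 atrial markers between 737 and 3090 CPM. Single markers of both lists were called between strains, in both directions for the ventricular list. Against C57BL/6J, 2 ventricular markers were called higher and 3 lower in NZO/HlLtJ, and 1 higher and 4 lower in CAST/EiJ. Of the atrial markers, 1 was higher and 0 lower in NZO/HlLtJ, and 0 higher and 2 lower in CAST/EiJ. Between NZO/HlLtJ and CAST/EiJ, 3 ventricular markers were called each way, and 2 atrial ones higher in NZO/HlLtJ. Single markers of other cell types were also called between strains. Of all genes, 35.5% were called for NZO/HlLtJ against C57BL/6J, 58.8% for CAST/EiJ against C57BL/6J and 60.3% for NZO/HlLtJ against CAST/EiJ. Apart from the fibroblast list, the counts given next lie near these shares. All 8 fibroblast markers were called higher in NZO/HlLtJ than in either other strain (summed level 2750 to 3480 CPM, against 2010 to 2290 in C57BL/6J and 1660 to 2030 in CAST/EiJ). Against C57BL/6J, 1 fibroblast marker was called higher and 3 lower in CAST/EiJ. Of 8 smooth muscle and pericyte markers, 3 were called lower in NZO/HlLtJ compared with C57BL/6J and 0 higher (1020 to 1140 CPM against 1280 to 1490), and in CAST/EiJ 3 were lower and 2 higher (1100 to 1270 CPM). Of 7 macrophage markers, 3 were called lower and 0 higher in NZO/HlLtJ (193 to 272 CPM, against 223 to 281 in C57BL/6J). In CAST/EiJ, 3 of 5 erythroid markers were called higher than in C57BL/6J and 0 lower (4310 to 21900 CPM against 2890 to 8770), and 4 macrophage markers lower and 0 higher (193 to 255 CPM). The part of these cell types in the strain differences given below was not tested. In bulk tissue, fewer cells of a type and less RNA per cell cannot be told apart. The submitters' processing notes name the assembly GRCm38. Whether reads of the 3 strains were assigned to genes equally well was not tested. Sample identifiers fall into 3 number ranges; the first holds 1 library of each C57BL/6J and CAST/EiJ group and none of NZO/HlLtJ.

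Promoter sequence was at hand for 5 of the 8 genes, in 7 stretches of 250 bases before an annotated start (RefSeq, GRCm38.p6). The stretches of 4 genes are shown because these genes moved in opposite directions in CAST/EiJ: Adrb1, Prkaca and Adcy5 were higher there than in C57BL/6J and Pde4d was lower. Capitals mark TGACG, the core of the cAMP response element, read on either strand, so that CGTCA is its reverse complement. The letters are those of the reference assembly, and those of the other strains were not read.

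Adrb1 (chr19:56721867-56722116, plus strand): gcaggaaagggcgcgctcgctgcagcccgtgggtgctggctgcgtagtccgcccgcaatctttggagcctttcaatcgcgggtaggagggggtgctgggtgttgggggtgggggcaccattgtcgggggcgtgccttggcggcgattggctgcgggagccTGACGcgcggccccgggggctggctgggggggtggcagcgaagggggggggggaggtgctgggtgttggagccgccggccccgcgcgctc

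Prkaca (first start, chr8:83972728-83972977, plus strand): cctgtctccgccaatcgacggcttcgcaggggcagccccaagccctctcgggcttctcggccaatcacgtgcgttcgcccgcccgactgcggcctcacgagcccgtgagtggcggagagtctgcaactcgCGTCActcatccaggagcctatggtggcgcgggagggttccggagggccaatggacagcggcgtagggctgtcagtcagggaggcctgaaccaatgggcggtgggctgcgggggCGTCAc

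Adcy5 (chr16:35154614-35154863, plus strand): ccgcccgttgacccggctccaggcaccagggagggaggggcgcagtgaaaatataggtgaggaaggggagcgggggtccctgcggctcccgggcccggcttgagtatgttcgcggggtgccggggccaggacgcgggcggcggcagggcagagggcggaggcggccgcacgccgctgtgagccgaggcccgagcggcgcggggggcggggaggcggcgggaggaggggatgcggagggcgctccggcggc

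Pde4d (chr13:108653927-108654176, plus strand): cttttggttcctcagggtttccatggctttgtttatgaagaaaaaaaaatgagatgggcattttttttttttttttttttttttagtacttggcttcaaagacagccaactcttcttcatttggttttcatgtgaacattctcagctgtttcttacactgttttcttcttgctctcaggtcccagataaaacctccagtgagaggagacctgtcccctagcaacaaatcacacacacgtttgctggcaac

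The Adrb1 stretch held the core 1 time, 90 bases before the start, and the Prkaca stretch 2 times, 120 and 6 bases before it. Those of Adcy5 and Pde4d, both of Adra1b and the second of Prkaca did not hold it. Of the 32851 stretches in the RefSeq table, 17.8% held the core on either strand and 1.55% the full element TGACGTCA, which overlaps the core and was in none of the 7. The share of G or C was 74.0% in Adrb1, 78.0% in Adcy5, 38.8% in Pde4d, 68.8% and 50.8% in the first and second stretch of Prkaca, and 41.6% and 72.8% in those of Adra1b. The Pde4d stretch lies inside the gene span of the deposited annotation, downstream of its first base, and 20 transcripts are annotated for that gene, so it stands for 1 of several possible starts.

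Adrb1, the beta-1 receptor through which noradrenaline drives the heartbeat, was highest in CAST/EiJ and lowest in NZO/HlLtJ. The gene (ENSMUSG00000035283) lies at chr19:56722372-56724862 on the plus strand in the deposited annotation (GRCm38). It ran from 11.4 to 15.4 CPM in the 8 CAST/EiJ libraries (median 14, mean 13.8 ± 1.5 SD), from 9.16 to 13.3 in C57BL/6J (median 11.6, mean 11.5 ± 1.3) and from 6.01 to 10.9 in NZO/HlLtJ (median 9.7, mean 9.39 ± 1.55). All NZO/HlLtJ libraries lay below all of CAST/EiJ, and C57BL/6J overlapped both. The differences were -0.56 for NZO/HlLtJ against CAST/EiJ (SE 0.10, adjusted p = 8.21e-05), 0.26 for CAST/EiJ against C57BL/6J (SE 0.10, adjusted p = 0.0267) and -0.29 for NZO/HlLtJ against C57BL/6J (SE 0.10, adjusted p = 0.0268). Among the strain calls of the 8 genes, the latter pair were lost most often when a library was left out. NZO/HlLtJ against C57BL/6J was -0.21 and no longer called with the identifier range as a block (adjusted p = 0.145). That call was also lost, at adjusted p of at most 0.0785, without any 1 of 7 libraries: in C57BL/6J the first female at 10% fat, the first male at 10% fat or the second male at 44% fat, and in NZO/HlLtJ the first female of either diet, the first male at 10% fat or the second male at 44% fat. The call of CAST/EiJ against C57BL/6J was lost, at adjusted p of at most 0.0829, without any 1 of 6: the second C57BL/6J male at 10% fat, the first at 44% fat, the second C57BL/6J female at 10% fat, the first CAST/EiJ female at 10% fat, or a CAST/EiJ male, either the second at 10% fat or the first at 44% fat. Within the first identifier range it was 0.26 (adjusted p = 0.0237).

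Adra1a, the alpha-1A receptor, followed the same order of strains with a wider spread in CAST/EiJ. Its gene, ENSMUSG00000045875, spans chr14:66635251-66733462 on the plus strand. It ran from 27.4 to 47.4 CPM in CAST/EiJ (median 37.3, mean 37.8 ± 7.53), from 28.9 to 37.3 in C57BL/6J (median 32.9, mean 33.1 ± 2.88) and from 23.1 to 30.1 in NZO/HlLtJ (median 27.4, mean 27 ± 2.69). Of the NZO/HlLtJ libraries, 6 lay below the lowest of C57BL/6J, and 4 CAST/EiJ libraries lay above the highest of C57BL/6J and 1 below its lowest. NZO/HlLtJ was lower than C57BL/6J by a difference of -0.29 (SE 0.07, adjusted p = 0.0017) and lower than CAST/EiJ by one of -0.47 (SE 0.07, adjusted p = 4.68e-06). CAST/EiJ exceeded C57BL/6J by 0.18 (SE 0.07, adjusted p = 0.0232), but the difference was 0.01 within the first identifier range (adjusted p = 0.923). In all 4 CAST/EiJ groups the library of the first range was the lower one: 30.8 against 41.1 CPM in females at 10% fat, 27.4 against 32.9 in females at 44% fat, 44.4 against 47.4 in males at 10% fat and 33.5 against 44.9 in males at 44% fat. That call was also lost, at adjusted p of at most 0.0851, without the second CAST/EiJ female of either diet, the second CAST/EiJ male at 44% fat or the second C57BL/6J female at 10% fat.

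Adra1b, the alpha-1B receptor, was lowest in NZO/HlLtJ. Adra1b is ENSMUSG00000050541, at chr11:43774606-43901210 on the minus strand. It ran from 19.7 to 24.2 CPM in NZO/HlLtJ (median 21.3, mean 21.5 ± 1.51), below every library of C57BL/6J (24.5 to 40.1, median 28.3, mean 29.8 ± 5.39) and of CAST/EiJ (26.1 to 35.7, median 32.2, mean 31.7 ± 3.67). The difference was -0.46 against C57BL/6J (SE 0.08, adjusted p = 0.000158) and -0.56 against CAST/EiJ (SE 0.08, adjusted p = 8.01e-06). CAST/EiJ against C57BL/6J was 0.09, with a 95% interval of -0.07 to 0.26 (adjusted p = 0.313), and 0.28 within the first identifier range, where it was called (adjusted p = 0.0109).

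Of the cyclases, Adcy5 stood apart in CAST/EiJ. Adcy5 is ENSMUSG00000022840, at chr16:35154877-35305737 on the plus strand. Its level there ran from 131 to 150 CPM (median 140, mean 141 ± 5.79), above every library of C57BL/6J (83.6 to 106, median 94.5, mean 95.6 ± 7.85) and of NZO/HlLtJ (84.9 to 107, median 95.7, mean 95.5 ± 7.67). The fold over C57BL/6J was 1.47, with a 95% interval of 1.37 to 1.59 (log2 difference 0.56, SE 0.05, adjusted p = 1.71e-08), and it was 0.64 on the log2 scale within the first identifier range (adjusted p = 3.32e-06). NZO/HlLtJ against C57BL/6J was 0.00, with an interval of -0.11 to 0.11 (adjusted p = 1).

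Adcy6, the cyclase isoform with the higher level, was instead low in NZO/HlLtJ. Adcy6 is ENSMUSG00000022994, at chr15:98589994-98607633 on the minus strand. It ran from 194 to 228 CPM there (median 205, mean 207 ± 12.6), below every C57BL/6J library (235 to 271, median 252, mean 252 ± 14.5). CAST/EiJ spread from 204 to 335 CPM (median 257, mean 257 ± 37.5) and overlapped both; its highest value belonged to the second female at 10% fat and its lowest to the first male at 10% fat. NZO/HlLtJ was lower than C57BL/6J at -0.28 (SE 0.05, adjusted p = 6.01e-05) and lower than CAST/EiJ at -0.30 (SE 0.05, adjusted p = 1.12e-05). CAST/EiJ against C57BL/6J was 0.02, with a 95% interval of -0.08 to 0.11 (adjusted p = 0.756). The ratio of Adcy6 to Adcy5 CPM, in which gene length is the same in each strain, thus had a mean of 2.65 ± 0.22 in C57BL/6J, 2.18 ± 0.218 in NZO/HlLtJ and 1.83 ± 0.273 in CAST/EiJ (SD, n = 8). Adcy6 shares 605 exon bases with the antisense gene Gm29331, which is also in the count table, and how strand was handled is not given in the sources used here, so its count is uncertain to that extent.

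Pde3a, the phosphodiesterase that the heart failure drug milrinone inhibits, differed by at most 0.19 on the log2 scale between strains. Pde3a is ENSMUSG00000041741, at chr6:141249269-141507448 on the plus strand. It ran from 140 to 183 CPM in C57BL/6J (median 168, mean 163 ± 16), from 145 to 174 in CAST/EiJ (median 155, mean 158 ± 11.1) and from 132 to 157 in NZO/HlLtJ (median 141, mean 143 ± 7.84). The 3 ranges overlapped. NZO/HlLtJ was lower than C57BL/6J at -0.19 (SE 0.05, adjusted p = 0.00685) and lower than CAST/EiJ at -0.15 (SE 0.05, adjusted p = 0.0177). The call against CAST/EiJ was lost, at adjusted p of at most 0.0564, without the first CAST/EiJ female at 10% fat or the second NZO/HlLtJ female at 44% fat. CAST/EiJ against C57BL/6J was -0.04, with a 95% interval of -0.15 to 0.07 (adjusted p = 0.503). Pde3a shares 741 exon bases with the antisense gene Gm28523, so its count carries the same uncertainty as that of Adcy6.

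Pde4d, a cAMP-specific phosphodiesterase of beta-receptor and ryanodine receptor complexes, was highest in C57BL/6J. Pde4d is ENSMUSG00000021699, at chr13:108449948-109953461 on the plus strand. It ran from 24.9 to 33.1 CPM there (median 27.6, mean 28.1 ± 2.52), above every library of CAST/EiJ (17.9 to 23.7, median 20.2, mean 20.8 ± 2.27) and of NZO/HlLtJ (19.1 to 21.1, median 19.5, mean 19.8 ± 0.712). The difference from C57BL/6J was -0.44 in CAST/EiJ (SE 0.07, adjusted p = 1.12e-05; -0.49 within the first identifier range, adjusted p = 0.000169) and -0.51 in NZO/HlLtJ (SE 0.07, adjusted p = 5.14e-06). NZO/HlLtJ against CAST/EiJ was -0.07, with a 95% interval of -0.21 to 0.07 (adjusted p = 0.381), and -0.14 with the identifier range as a block, where it was called (adjusted p = 0.0495). The ratio of Pde3a to Pde4d CPM was 5.81 ± 0.463 in C57BL/6J, 7.73 ± 1.16 in CAST/EiJ and 7.23 ± 0.315 in NZO/HlLtJ.

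Prkaca, which encodes the main catalytic subunit of PKA in heart, was highest in CAST/EiJ. Prkaca is ENSMUSG00000005469, at chr8:83972978-83996445 on the plus strand. It ran from 188 to 226 CPM there (median 204, mean 206 ± 14), from 158 to 193 in C57BL/6J (median 182, mean 180 ± 12.2) and from 157 to 186 in NZO/HlLtJ (median 165, mean 168 ± 11.7). Every NZO/HlLtJ library lay below every CAST/EiJ library, and 7 CAST/EiJ libraries lay above the highest of C57BL/6J. CAST/EiJ exceeded C57BL/6J by 0.20 (SE 0.04, adjusted p = 0.000348) and by 0.19 within the first identifier range (adjusted p = 0.0151). NZO/HlLtJ was lower than CAST/EiJ at -0.29 (SE 0.04, adjusted p = 5.03e-06). Against C57BL/6J it was -0.09 and not called (adjusted p = 0.0857); it was called with upper-quartile scaling (adjusted p = 0.0489) and without the second NZO/HlLtJ female at 10% fat (adjusted p = 0.0406). The other catalytic subunit, Prkacb, had its highest level in NZO/HlLtJ at 71.4 ± 3.7 CPM, against 65.4 ± 2.29 in C57BL/6J (difference 0.13, adjusted p = 0.00413) and 64.8 ± 1.65 in CAST/EiJ. The ratio of Prkaca to Prkacb CPM was 3.19 ± 0.2 in CAST/EiJ, 2.75 ± 0.204 in C57BL/6J and 2.36 ± 0.193 in NZO/HlLtJ.

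**Figure D1:**
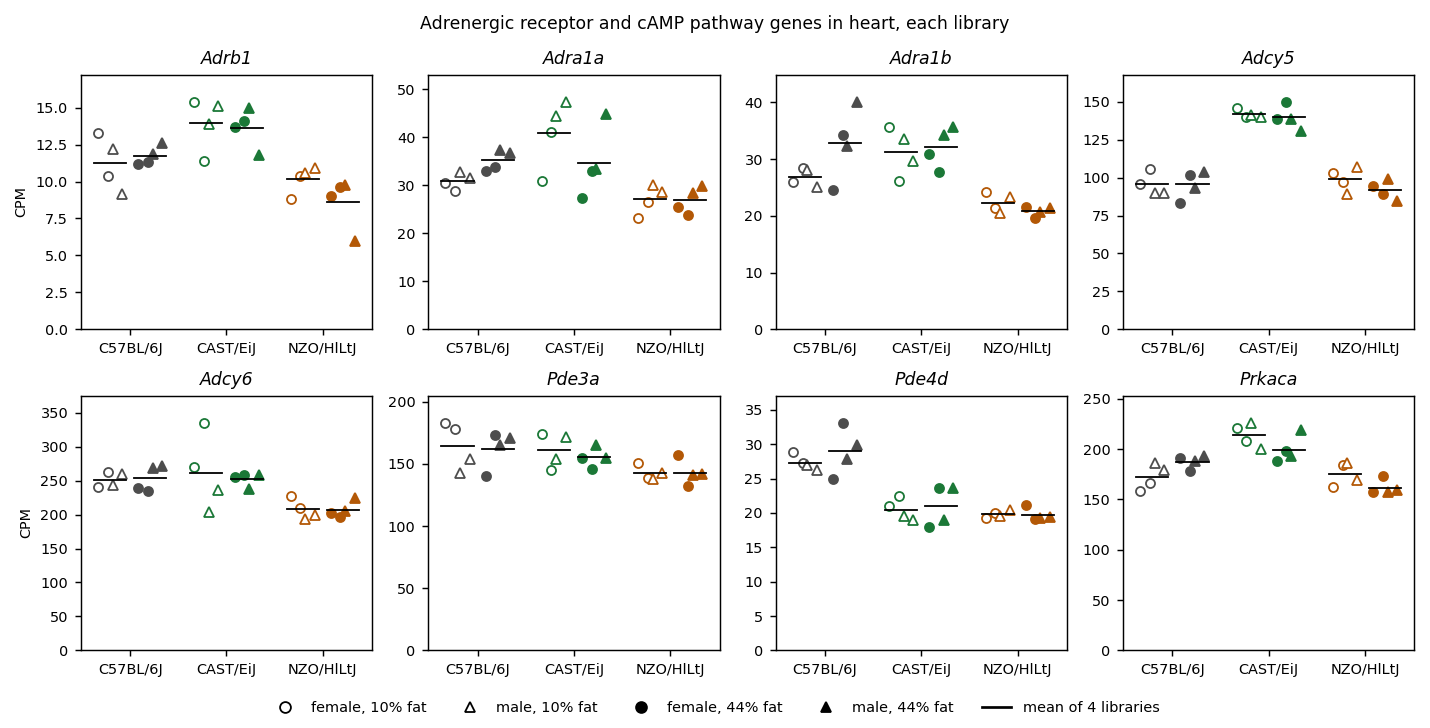
CPM of each of the 8 genes (vertical axes, each from 0) in every library, by strain (horizontal axis and colour), diet (open, 10% fat; filled, 44% fat) and sex (circles, female; triangles, male), with black lines at the mean of 4 libraries. Adcy5 stands at 131 CPM or more in CAST/EiJ and at 107 or less elsewhere, and Pde4d at 24.9 or more in C57BL/6J and at 23.7 or less elsewhere.

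Counted together, 6 of the 8 genes were called lower in NZO/HlLtJ compared with C57BL/6J and 0 higher. Of all genes tested, 35.5% were called in this comparison and 17.6% were called lower. The median difference of the 8 was -0.29, against 0 over all genes, and the ranges of 3 genes did not overlap (Adra1b, Adcy6 and Pde4d; 12.2% of all genes did not). For NZO/HlLtJ against CAST/EiJ 7 of 8 were called lower and 0 higher, against 60.3% of all genes called and 29.8% called lower. Here the median was -0.39, and 4 genes did not overlap (Adrb1, Adra1b, Adcy5 and Prkaca; 26.8% of all genes). CAST/EiJ against C57BL/6J was mixed, with 4 genes called higher (Adrb1, Adra1a, Adcy5 and Prkaca) and 1 lower (Pde4d). That is 5 of 8 beside 58.8% of all genes called (29.1% higher and 29.7% lower), a share near the background, and 2 genes did not overlap, Adcy5 and Pde4d, beside 27% of all genes. These 3 comparisons share their libraries pairwise, so the counts are not independent. The second C57BL/6J female at 10% fat decided 2 of the 5 calls: without it 3 remained called, those of Adcy5, Pde4d and Prkaca.

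**Figure D2:**
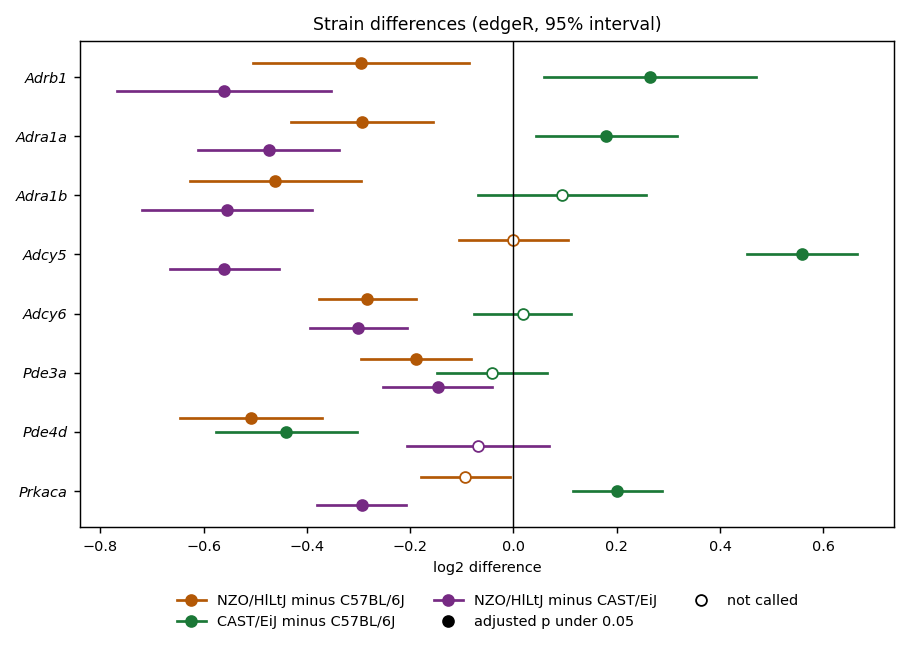
Log2 difference (horizontal axis) of each gene between strains, with its 95% interval; filled points are called at an adjusted p under 0.05 and open points are not. The NZO/HlLtJ points lie at or below 0 for all 8 genes, and those of CAST/EiJ against C57BL/6J run from -0.44 (Pde4d) to 0.56 (Adcy5).

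Levels of different genes are compared per length, as RPKM (CPM per kilobase of exon), over all 24 libraries. Prkaca was highest at 74.3 ± 8.21 RPKM, then Adcy6 at 35.2 ± 4.8, Adcy5 at 15.4 ± 3.17 and Pde3a at 12.2 ± 1.15. The receptors were lower, with Adra1b at 8.19 ± 1.72, Adra1a at 3.74 ± 0.746 and Adrb1 at 3.42 ± 0.682, and Pde4d was lowest at 1.91 ± 0.356. Ranges of neighbours in this order overlapped between Adcy5 and Pde3a, Pde3a and Adra1b, Adra1a and Adrb1, and Adrb1 and Pde4d. Exon lengths joined all annotated exons of a gene and came from the GENCODE M21 annotation, whose gene span equalled that of the deposited table for 3 of the 8 genes. For Pde4d that length was 12.01 kilobases over 20 transcripts. Whether it would rank lowest with the length of a single transcript was not tested. With exons limited to the deposited span, Adrb1 stood at 4.64 RPKM and Adra1a at 4.01, so the order of these neighbours is not settled.

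Diet had no called effect on any of the 8 genes in C57BL/6J, CAST/EiJ, NZO/HlLtJ or the 3 strains together. The smallest adjusted p of the 8 was 0.81, 0.666, 0.709 and 0.819 in that order. At an unadjusted p under 0.05, edgeR gave 2, 1, 0 and 0 of the 8, beside 966, 1137, 1233 and 1515 of all 17203 genes, and DESeq2 and limma-voom likewise called 0 in each. Few genes were called at all: 0.0407% of those tested in C57BL/6J, 0% in CAST/EiJ and in NZO/HlLtJ, and 0.157% over the strains. The 95% intervals of the 24 diet differences reached at most 0.51 above and -0.54 below 0, so larger changes were outside them.

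The 3 genes at an unadjusted p under 0.05 were Adra1b and Prkaca in C57BL/6J and Adra1a in CAST/EiJ. In C57BL/6J, Adra1b stood at 24.5, 34.2, 32.3 and 40.1 CPM on 44% fat and at 26, 28.5, 28.1 and 25 on 10% fat (0.28, SE 0.11, adjusted p = 0.81 by edgeR). The groups overlapped, since the first female on 44% fat was the lowest of all 8, and the difference was 0.07 within the first identifier range. Prkaca stood in C57BL/6J at 191, 178, 188 and 193 CPM on 44% fat and at 158, 166, 186 and 179 on 10% fat (0.12, SE 0.06, adjusted p = 0.882 by edgeR), also with overlap.

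Adra1a is the gene whose diet ranges did not overlap in C57BL/6J, beside 4.11% of all genes. It stood at 33, 33.9, 37.3 and 36.7 CPM on 44% fat and at 30.5, 28.9, 32.7 and 31.5 on 10% fat (0.19, SE 0.09, adjusted p = 0.896 by edgeR). In CAST/EiJ the sign was opposite, with 27.4, 32.9, 33.5 and 44.9 CPM on 44% fat and 30.8, 41.1, 44.4 and 47.4 on 10% fat (-0.24, SE 0.09, adjusted p = 0.666 by edgeR; -0.28 within the first identifier range). These CAST/EiJ groups overlapped, and in both sexes the mean was lower on 44% fat. In NZO/HlLtJ the level was 26.9 ± 2.77 CPM on 44% fat and 27.1 ± 3.03 on 10% (SD, n = 4).

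Whether diet acted differently between strains was tested as the difference of their diet effects, and 0 of the 8 genes were called in any of the 3 such comparisons. Over all genes 0.00581% were called for NZO/HlLtJ against C57BL/6J and 0% for the other 2; DESeq2 and limma-voom called 0 of the 8 in each. For Adra1a the CAST/EiJ effect was lower than that of C57BL/6J by a difference of -0.43 (SE 0.13, adjusted p = 0.681 by edgeR). For Prkaca, the effect in NZO/HlLtJ differed from that in C57BL/6J by -0.24 (adjusted p = 0.973 by edgeR) and the one in CAST/EiJ by -0.22 (adjusted p = 0.745 by edgeR). For Adra1b, NZO/HlLtJ differed from C57BL/6J by -0.38 (adjusted p = 1 by edgeR). These comparisons share the C57BL/6J libraries. In NZO/HlLtJ the diets of each sex come from different identifier ranges, so within a sex diet and range cannot be told apart. The same holds for the second CAST/EiJ libraries, which fall in the second range at 10% fat and the third at 44% fat. Of the second C57BL/6J libraries, those of males fall in the second range and those of females in the third.

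**Figure D3:**
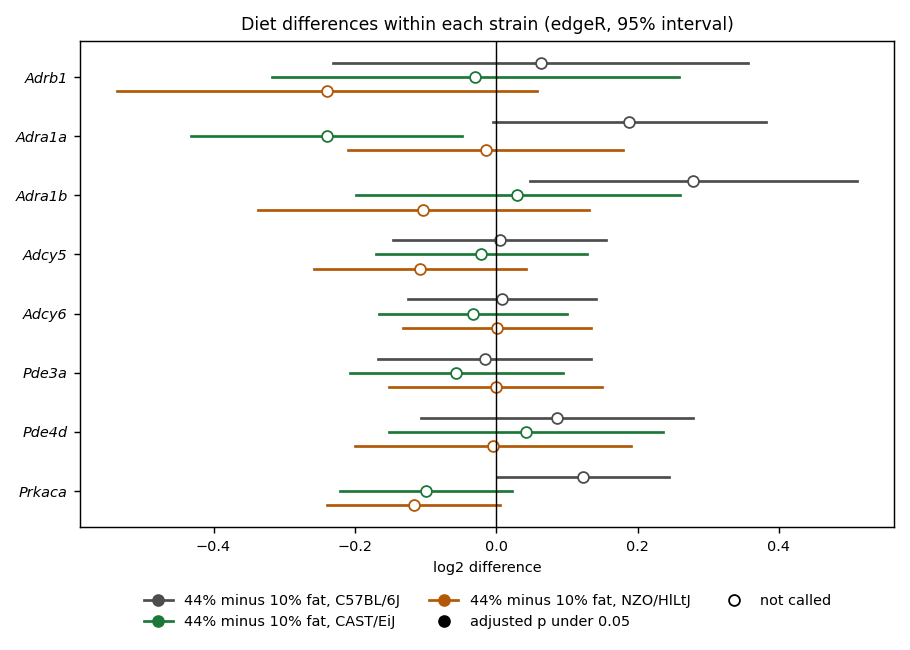
Log2 difference between 44% and 10% fat (horizontal axis) of each gene within each strain, with its 95% interval; all points are open because no gene was called. For Adra1a the C57BL/6J point lies at 0.19 and the CAST/EiJ point at -0.24.

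Between the sexes, 0 of the 8 genes were called by edgeR, beside 0.372% of all genes, with Adra1a nearest at an adjusted p of 0.054 and 1 of the 8 at an unadjusted p under 0.05. Adra1a was higher in males by 0.24 (SE 0.05), and the male mean exceeded the female mean in 6 of 6 pairs of strain and diet. It ran from 28.3 to 30.1 CPM in NZO/HlLtJ males and from 23.1 to 26.6 in females, without overlap. In C57BL/6J males had 34.6 ± 2.88 CPM and females 31.6 ± 2.28, and in CAST/EiJ 42.5 ± 6.19 and 33.1 ± 5.84 (SD, n = 4), with overlap in both strains. The call depended on the setting: DESeq2 called Adra1a (0.24, adjusted p = 0.00787), as did edgeR without a filter on low counts (adjusted p = 0.0413) or with the identifier range as a block (0.26, adjusted p = 0.0356), while limma-voom did not (adjusted p = 0.0701). Within the first identifier range the difference was 0.28 (adjusted p = 0.187). Leaving out the first CAST/EiJ male at 44% fat (adjusted p = 0.0101), the second CAST/EiJ female at 10% fat (adjusted p = 0.00717) or the second at 44% fat (adjusted p = 0.034) also gave a call. The other 7 genes had sex differences between -0.06 and 0.09.

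**Figure D4:**
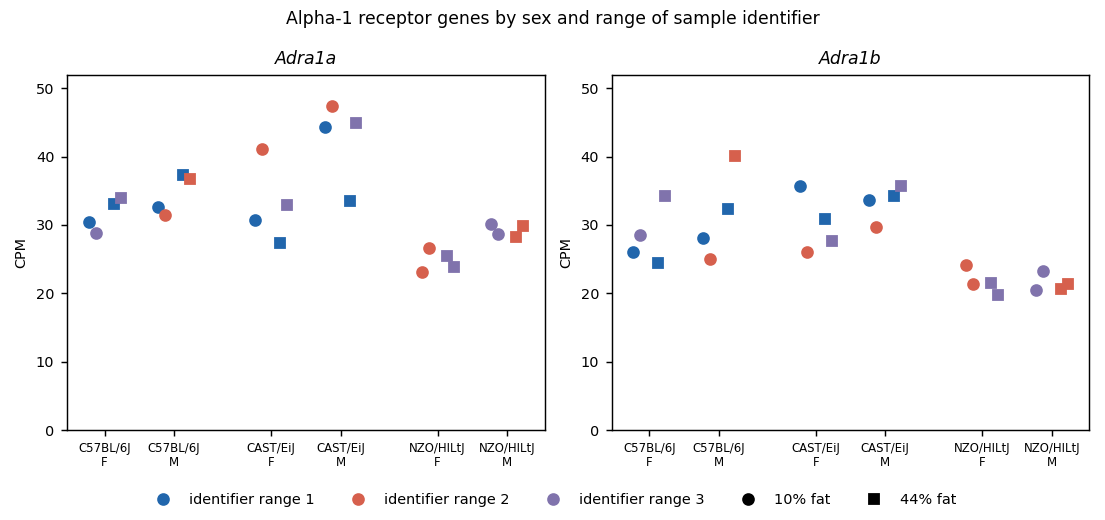
CPM of Adra1a and Adra1b (vertical axes, from 0) in each library by strain and sex (horizontal axis; F, female; M, male), coloured by the range of the sample identifier, with circles for 10% and squares for 44% fat. In each CAST/EiJ group the Adra1a library of the first range lies below the other one.

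The wider pathway was described through 12 lists that hold 125 other genes, of which 124 were tested. Between strains, 54 of the 124 were called for NZO/HlLtJ against C57BL/6J, 22 higher and 32 lower (43.5%, median -0.02). For CAST/EiJ against C57BL/6J 75 were called, 38 higher and 37 lower (60.5%, median 0), and for NZO/HlLtJ against CAST/EiJ 74, with 37 each way (59.7%, median -0.04). These shares stand beside 35.5%, 58.8% and 60.3% of all genes. The counts of single lists given below stand beside the same shares. For diet, for the difference of diet effects and for sex, edgeR called 0 of the 124; at an unadjusted p under 0.05 there were 6 for diet in C57BL/6J, 10 in CAST/EiJ, 15 in NZO/HlLtJ and 21 over the strains, 7 to 11 for the differences of diet effects and 14 for sex. Over all 17203 genes the corresponding numbers were 966, 1137, 1233 and 1515 for diet, 799 to 1123 for the differences of diet effects and 1539 for sex.

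Among the other adrenergic receptors, 2 of 6 were called higher in NZO/HlLtJ than in C57BL/6J and 0 lower, beside 35.5% of all genes called. Adra2a, an inhibitory alpha-2 receptor, was seen mainly in CAST/EiJ, at 0.638 to 1.14 CPM, against 0 to 0.0946 in C57BL/6J and 0 to 0.162 in NZO/HlLtJ. Adra1d, the third alpha-1 receptor, was lower in CAST/EiJ at 0.72 ± 0.345 CPM than in C57BL/6J at 2.47 ± 0.38 (-1.85, adjusted p = 1.03e-08). Adrb3, the beta-3 receptor of adipocytes, was not called between strains. Its highest value, 6.08 CPM, was that of the first CAST/EiJ male at 10% fat, the library with the highest summed level of 3 brown adipocyte markers. That level was 211 CPM, against a median of 21.3 in CAST/EiJ and 13.1 to 74.7 in C57BL/6J and NZO/HlLtJ.

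The G proteins and the proteins that switch receptors off differed in both directions. Gnao1, a G protein of the inhibitory class, was higher in NZO/HlLtJ at 45.8 ± 5.59 CPM than in C57BL/6J at 27.2 ± 4.97 (0.76, adjusted p = 8.46e-06 by edgeR). In this comparison 4 of 12 G protein subunits were called, 3 higher and 1 lower (33.3%, beside 35.5% of all genes). Gnas, which encodes the stimulatory subunit, was not called between any strains (69.4 ± 9.53, 69.8 ± 5.64 and 72.7 ± 5.93 CPM in C57BL/6J, CAST/EiJ and NZO/HlLtJ; chosen after its values were seen). Grk5, a kinase that desensitizes beta receptors, was lower in NZO/HlLtJ at 25.1 ± 4.23 CPM than in C57BL/6J at 41.1 ± 5.42 (-0.72, adjusted p = 5.65e-08) and CAST/EiJ at 49.2 ± 5.73. The related kinase GRK3, listed under its older symbol Adrbk2, had the opposite order, at 29.3 ± 3.9 CPM in NZO/HlLtJ, 21.3 ± 1.67 in C57BL/6J and 11.5 ± 2.2 in CAST/EiJ (NZO/HlLtJ against CAST/EiJ 1.36, adjusted p = 1.28e-11). In CAST/EiJ 6 of 11 genes of this list were called lower than in C57BL/6J and 2 higher (72.7%, beside 58.8% of all genes). Rgs6, which speeds the shutdown of inhibitory G proteins, had a difference of -1.68 (adjusted p = 4.93e-08), and Rgs5, which is also a pericyte marker, one of -1.20 (adjusted p = 2.66e-12).

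Among the other cyclases and phosphodiesterases, 3 genes stood apart in CAST/EiJ. Adcy8, a calcium-stimulated cyclase, stood at 5.46 ± 0.687 CPM in CAST/EiJ, 0.928 ± 0.325 in C57BL/6J and 0.546 ± 0.233 in NZO/HlLtJ (CAST/EiJ against C57BL/6J 2.57, adjusted p = 1.23e-08). Together 4 of 8 other cyclases were called higher and 2 lower in CAST/EiJ than in C57BL/6J (75%, beside 58.8% of all genes). Pde1c, a calmodulin-dependent phosphodiesterase of both cyclic nucleotides, stood at 164 ± 13.3 CPM in CAST/EiJ, against 61.9 ± 6.48 in C57BL/6J (1.41, adjusted p = 1.4e-10) and 49 ± 13 in NZO/HlLtJ. Pde7b, specific for cAMP, stood at 96.8 ± 15.1, 25.3 ± 2.72 and 29.4 ± 1.72 CPM in the same order (CAST/EiJ against C57BL/6J 1.94, adjusted p = 1.37e-11). The CAST/EiJ libraries of both genes lay above all others. The list of other phosphodiesterases holds 16 genes, including Pde4dip, which encodes an interacting protein and not a phosphodiesterase. Against C57BL/6J, 6 were called higher and 3 lower in CAST/EiJ, among the latter Pde4a (-0.35, adjusted p = 8.13e-05 by edgeR). In NZO/HlLtJ 3 were called higher, among them Pde4dip (0.22, adjusted p = 0.000354 by edgeR), and 4 lower. The shares of this list called were 56.2% in CAST/EiJ and 43.8% in NZO/HlLtJ, beside 58.8% and 35.5% of all genes.

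Downstream of cAMP, 75% of the other effectors were called for NZO/HlLtJ against C57BL/6J, beside 35.5% of all genes. Of these 8 effectors, 5 were called lower and 1 higher (median -0.25, against 0 over all genes). The cAMP-activated exchange factors Rapgef3 (20.7 ± 1.93 against 26.7 ± 1.73 CPM; -0.37, adjusted p = 7.28e-06) and Rapgef4 (21.5 ± 2.45 against 29.5 ± 3.23 CPM; -0.46, adjusted p = 3.09e-05) were among them. Hcn4, the pacemaker channel that cAMP opens, was the one that was higher, at 15.1 ± 2.48 against 7.53 ± 1.69 CPM (1.00, adjusted p = 1.75e-07). The summed atrial markers overlapped between these strains (1190 to 3090 CPM in NZO/HlLtJ, 737 to 2610 in C57BL/6J). Of the 6 atrial markers, 1 was called higher in NZO/HlLtJ and 0 lower, beside 35.5% of all genes called. The part of these markers in the Hcn4 difference was not tested.

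For other PKA subunits and inhibitors the share called was 25% in NZO/HlLtJ and 37.5% in CAST/EiJ, beside 35.5% and 58.8% of all genes. Of these 8, 1 was called higher and 1 lower in NZO/HlLtJ compared with C57BL/6J, and 1 higher and 2 lower in CAST/EiJ. One of them was Pkia, an inhibitor of the catalytic subunit, at 154 ± 12.4 CPM in CAST/EiJ against 206 ± 10.2 in C57BL/6J (-0.42, adjusted p = 2.4e-07). A list of 11 genes covered anchoring proteins, which hold PKA at its sites of action, and also the caveolin gene Cav3. Of these, 2 were called for NZO/HlLtJ against C57BL/6J (18.2%, beside 35.5% of all genes). Akap7 was higher in NZO/HlLtJ than in C57BL/6J (24.6 ± 1.19 against 18.3 ± 0.696 CPM, difference 0.42, adjusted p = 6.6e-07 by edgeR). Akap1 was lower (-0.17, adjusted p = 0.0127 by edgeR).

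PKA substrates and phosphatase partners were called in 6 of 13 cases for NZO/HlLtJ against C57BL/6J, 2 higher and 4 lower. In CAST/EiJ 9 were called, 6 higher and 3 lower. These shares were 46.2% and 69.2%, beside 35.5% and 58.8% of all genes. Pln, phospholamban, the brake on calcium reuptake that PKA releases, was highest in C57BL/6J at 4130 ± 296 CPM, against 3630 ± 284 in NZO/HlLtJ (-0.19, adjusted p = 0.000364) and 3300 ± 177 in CAST/EiJ (-0.32, adjusted p = 2.56e-07). Ryr2, the calcium release channel, was highest in CAST/EiJ at 4920 ± 390 CPM, against 3250 ± 113 in C57BL/6J (0.60, adjusted p = 1.78e-09). Mybpc3, a sarcomere protein, was lowest there at 1730 ± 146 CPM against 3050 ± 305 (-0.81, adjusted p = 2.27e-09). These 3 genes are also among the 9 ventricular markers. Ppp1r1a, an inhibitor of protein phosphatase that PKA activates, stood at 6.03 ± 0.85 CPM in CAST/EiJ and 0.926 ± 0.241 in C57BL/6J (2.68, adjusted p = 1.22e-11).

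The list for cAMP-responsive transcription holds both factors that carry the signal, such as Creb1, and genes induced by cAMP. Of its 12 genes, 4 were called lower and 1 higher in NZO/HlLtJ compared with C57BL/6J (41.7%, beside 35.5% of all genes). Ppargc1a, a coactivator of mitochondrial genes, stood at 95.6 ± 12.1 CPM in NZO/HlLtJ and 111 ± 25.9 in CAST/EiJ, against 158 ± 19.7 in C57BL/6J (-0.72, adjusted p = 0.000325, and -0.50, adjusted p = 0.00245). Nr4a2, a nuclear receptor induced by cAMP, had a difference of -0.83 (adjusted p = 2e-04) in NZO/HlLtJ and Creb1, the factor that binds the cAMP response element, one of -0.20 (adjusted p = 0.0197). Among 8 effectors of the alpha-1 receptors, 3 were called lower and 0 higher in NZO/HlLtJ (37.5%, beside 35.5% of all genes). The median of that list was 0.02, so it was not lower as a whole. The lower genes included Plcb4, a phospholipase C (-0.24, adjusted p = 0.000586 by edgeR), and Prkce, a protein kinase C (-0.25, adjusted p = 0.000985 by edgeR). In CAST/EiJ 3 of the 8 effectors were called each way (75%, beside 58.8% of all genes). Itpr2, an inositol trisphosphate receptor, stood there at 59.3 ± 7.74 CPM against 30.5 ± 1.28 in C57BL/6J (0.96, adjusted p = 1.15e-10 by edgeR).

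The list for synthesis, uptake and breakdown of catecholamines had 9 of 11 tested genes called for NZO/HlLtJ against C57BL/6J, 5 higher and 4 lower. That is 81.8%, beside 35.5% of all genes. Th, the first enzyme of synthesis, did not pass the filter. Slc22a3, a transporter that clears catecholamines outside neurons, stood at 19.5 ± 0.457 CPM in NZO/HlLtJ, 12.8 ± 1.64 in CAST/EiJ and 9.62 ± 2.32 in C57BL/6J (NZO/HlLtJ against C57BL/6J 1.04, adjusted p = 4.03e-09). Npy, the peptide stored with noradrenaline in sympathetic nerves, ran from 1.15 to 3.85 CPM in NZO/HlLtJ, above C57BL/6J (0 to 0.281) and CAST/EiJ (0 to 0.512). The neuronal noradrenaline transporter Slc6a2 and the vesicle transporter Slc18a2 were lower in NZO/HlLtJ compared with C57BL/6J, at 0.104 ± 0.0824 against 0.328 ± 0.151 CPM (adjusted p = 0.0171) and 2.18 ± 0.395 against 2.62 ± 0.265 CPM (adjusted p = 0.0436). Ddc, which makes dopamine, was lower in both other strains than in C57BL/6J, at 1.66 ± 0.396 CPM in NZO/HlLtJ and 0.806 ± 0.151 in CAST/EiJ against 3.24 ± 0.544 (-0.97, adjusted p = 7.86e-06, and -2.00, adjusted p = 3.76e-10). Maob, a monoamine oxidase, was lower in CAST/EiJ at 28.2 ± 4.37 against 52.2 ± 7.15 CPM (-0.89, adjusted p = 4.06e-10). Of 5 tested Schwann and nerve markers, 3 were called higher and 0 lower in NZO/HlLtJ compared with C57BL/6J, beside 35.5% of all genes called. The summed level of the 6 listed was 13.7 to 18.7 against 9.52 to 14.7 CPM. The part of these markers in the differences above was not tested.

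**Figure D5:**
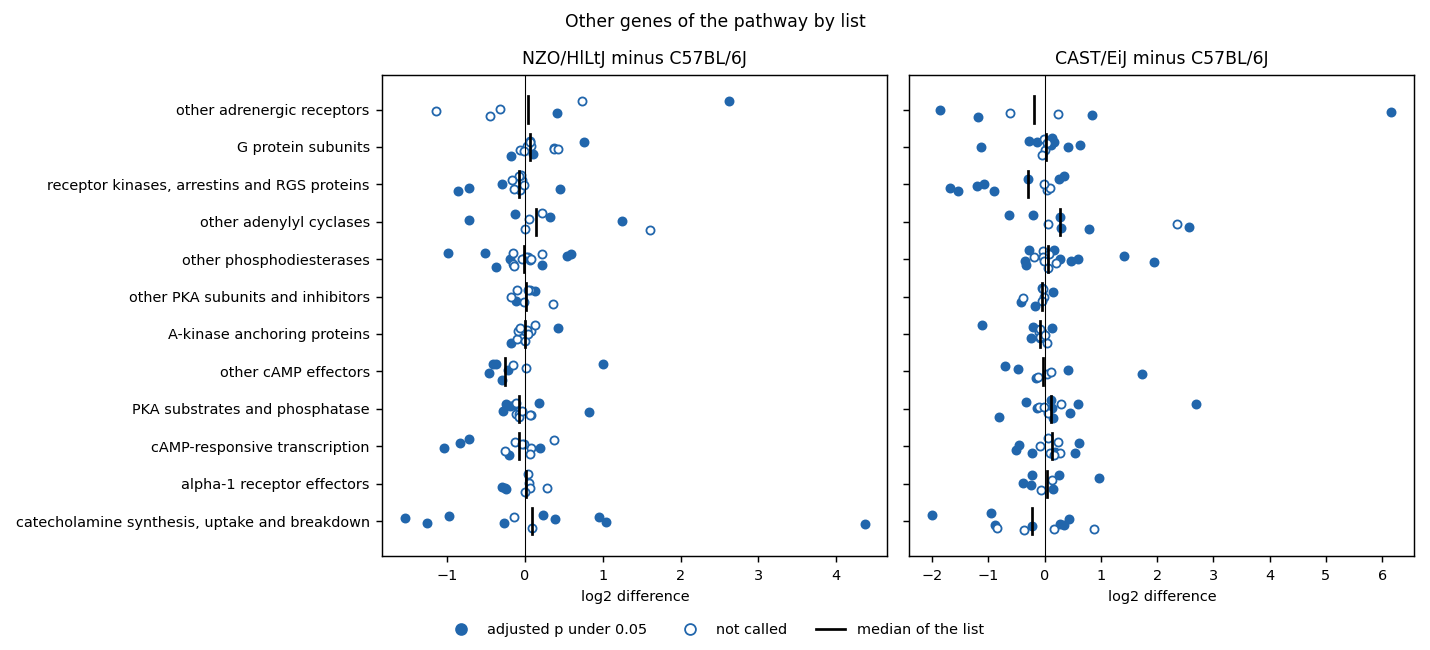
Log2 difference (horizontal axes, on different scales) of each tested gene in the 12 pathway lists (rows) for NZO/HlLtJ and for CAST/EiJ against C57BL/6J; filled points are called at an adjusted p under 0.05, and black bars are list medians. The list of other cAMP effectors has its median at -0.25 for NZO/HlLtJ, and the points farthest right belong to Npy and Adra2a, which are near 0 CPM in C57BL/6J.

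The genes most like each of the 8 across libraries were found by Pearson's r of log2 CPM over the 24 libraries among 12048 genes, as a description. The libraries share strain, so a shared strain pattern alone gives a high r. Adcy5 was followed closest by Fitm2 and Pxylp1 (r = 0.96 for both), Adra1b by Crip2 (0.92) and Ndufa13 (0.89), Pde4d by Tnni3k (0.92) and Sec31b (0.91), and Prkaca by Foxred1 (0.92) and Slc25a3 (0.91). For Adrb1 they were Igsf9b and Zik1 (0.89 for both), for Adcy6 Zmym5 and Ncln (0.88 for both), for Adra1a Aig1 (0.83) and Dnajc7 (0.82), and for Pde3a Imp4 (0.80) and Zfp933 (0.78). With the group means taken out, r lay between 0.37 for Adra1a with Aig1 and 0.79 for Adrb1 with Zik1. None of the 16 is among the 125 pathway genes.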

How the data were processed

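Mouse heart RNA was sequenced as 24 polyA-selected libraries (KAPA mRNA HyperPrep, paired-end), per the labels' protocols. The authors deposited estimated counts per gene (19.3% of values not whole within 1e-06) and variance-stabilized values on a log2 scale. The submitters' processing notes name GRCm38 and DESeq2 without version; the sources used here do not give aligner, counter, annotation release or strand handling. Groups came from the labelled strain, sex and diet.

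Counts were rounded and filtered with filterByExpr (minimum count 10, total 15), which kept 17203 of 20961 genes, and scaled by TMM (factors 0.954 to 1.06). A 12-group model was fitted with edgeR 4.0.16 (robust quasi-likelihood, R 4.3.3), with Benjamini-Hochberg adjustment over all genes in each of 11 comparisons and 95% intervals. The procedure was tested on simulated data. Alternatives were DESeq2 1.42.0, limma-voom and limma on the deposited values (limma 3.58.1), RLE and upper-quartile scaling, no filter, no mitochondrially encoded genes (20.2% to 28.8% of counts), the identifier range as a block, the first range alone, only the strains compared, leaving out each library, and, chosen after seeing the data, leaving out the 2 libraries that stand apart in marker genes. These 2 were the first CAST/EiJ male at 10% fat and the first CAST/EiJ female at 44% fat. Library totals ran from 30205073 to 52254058 counts, and the biological coefficient of variation over all genes was 0.127.

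The 8 genes and the pathway and marker lists were chosen with earlier results of these data known, so counts over them are descriptions. Of each pathway list, the text draws on up to 2 called genes of smallest adjusted p per direction and strain comparison, plus Prkacb and Adrb3, and on Gnas, which was chosen after its values were seen; some results are not reported here; like genes had a mean of at least 1 CPM and used log2(CPM + 0.01). Figures were drawn with matplotlib 3.10.9 in Python 3.11.15.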

Additional observations from a re-analysis of the deposited data

Results flagged for a closer look

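In 3 of 48 groups of 4 libraries (each gene in each strain and diet), 1 library stood apart from the other 3 by Dixon's criterion at the 95% level, which chance alone marks in about 1 in 20 groups. Adcy5 in CAST/EiJ was at 146 CPM in the first female at 10% fat, with the nearest library of its diet group at 141 and the farthest at 140. Pde4d in NZO/HlLtJ was at 21.1 CPM in the first female at 44% fat, with the others between 19.1 and 19.4. Prkaca in NZO/HlLtJ was at 173 CPM in the second female at 44% fat, with the others between 157 and 159.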

How the results depend on the processing

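The 88 differences of the 8 genes had 3015 alternative values. Of these, 2984 kept their side of the threshold, 21 lost a call, 10 gained one and 0 reversed a called direction. The 2984 include 139 values that changed sign and were not called in either setting. For 126 called differences of other named genes, 92 of 4329 alternative values lost the call and 0 reversed. Scaling moved the median difference of all genes by at most about 0.02 on the log2 scale, from 0.001 to -0.023 for CAST/EiJ against C57BL/6J with upper-quartile scaling.

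Of the 8 genes, 6 were called for NZO/HlLtJ against C57BL/6J (5 to 7 when 1 library was left out, 5 to 7 under the other alternatives), 7 for NZO/HlLtJ against CAST/EiJ (6 to 7, and 7 to 8) and 5 for CAST/EiJ against C57BL/6J (3 to 5, and 5). For diet and the differences of diet effects the number was 0 under every alternative run. For sex it was 0 and became 1, Adra1a, with DESeq2, without a filter on low counts and with the identifier range as a block, and 0 to 1 when 1 library was left out; the cause was not tested. Over all genes, calls between strains were 6108 for NZO/HlLtJ against C57BL/6J (5465 to 6287 with 1 library left out, 5589 to 6332 under the other alternatives), 10116 for CAST/EiJ against C57BL/6J (9694 to 10347, and 7404 to 10396) and 10373 for NZO/HlLtJ against CAST/EiJ (9994 to 10440, and 9881 to 10733). Diet calls moved by more than 1.5 times: 7 in C57BL/6J (0 to 38 under the other alternatives, 1 to 20 with 1 library left out), 0 in CAST/EiJ (0 to 29 and 0 to 18), 0 in NZO/HlLtJ (0 to 13 and 0 to 113) and 27 over the strains (13 to 105 and 4 to 143). Calls by sex were 64 (40 to 137 and 39 to 78), and those for differences of diet effects 1, 0 and 0 (at most 9). NZO/HlLtJ could not be fitted in the first identifier range, which holds none of its libraries. No paired analysis was possible because the labels carry no replicate numbers. The diet comparisons within a strain rest on 4 against 4 libraries, and the lowest count of the 8 genes was 221, for Adrb1; the share of depth in their precision was not tested.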
